A study of Homo sapiens with 6 samples.

Results

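The genes described are the 8 that encode the subunits of TRiC, the cytosolic chaperonin also called CCT: TCP1, CCT2, CCT3, CCT4, CCT5, CCT6A, CCT7 and CCT8. They were chosen by name, by what they encode, and each matched 1 of the 60660 gene IDs listed for every library. The libraries come from OCI-AML3, a human cell line long established from an acute myeloid leukaemia. In 3 libraries the cells overexpressed SLC2A3, the gene of the glucose transporter GLUT3, and in 3 they carried an empty vector, named pLenti in the library titles. The cells of all 6 libraries had received vitamin C at 250 µM, so no group analysed here lacks it. The labels name neither the promoter driving SLC2A3 nor clones, and do not say that the replicates were separate cultures. The p-values therefore measure the spread between these libraries, which may be technical.

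TRiC is a barrel of paired rings stacked back to back, each ring holding 1 copy of all 8 different subunits. An unfolded protein is closed inside a ring, the subunits hydrolyse ATP, and the protein is released folded or for another attempt. Actin and tubulin are its best known clients, together with proteins built on the WD40 propeller, and the hexameric chaperone prefoldin hands actin and tubulin over to it. Around the ring CCT4 lies between TCP1 and CCT2, and CCT3 lies between TCP1 and CCT6A. In yeast TCP1, CCT4, CCT2 and CCT5 form the side of the ring that binds ATP more tightly, and CCT7, CCT8, CCT6A and CCT3 the other side.

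Reads recovered from the deposited values summed to between 31054462 and 35770556 in the SLC2A3 libraries and between 32581096 and 33162128 in the vector libraries. A normalised read, the unit used throughout, is a gene's read count divided by 1 factor per library. SLC2A3 itself stood at 4056, 3716 and 4054 normalised reads in the SLC2A3 libraries, against 1194, 1183 and 1257 in the vector libraries, so its level followed the labels. At the level of genes, reads from the vector and from the cell's own SLC2A3 cannot be told apart. Of the 10 myeloid markers, 9 passed the filter for testing, and their summed level was 40210 to 44516 in the SLC2A3 libraries and 40703 to 42049 in the vector libraries, with KIT at 0 to 2 normalised reads. None of the 9 was called with limma, 0 of 9, against 1.49% of all genes tested. In 3 of 9, ANPEP, LYZ and CSF1R, the SLC2A3 libraries were all lower, against 8.27% of all genes. In 0 of 9 were they all higher, against 8.04%. The log2 fold changes of 4 of the 9, MPO, ITGAM, SPI1 and CEBPA, were above 0, against 50.3% of all genes. SPI1 stood at 0.12 (limma adjusted p = 0.182, DESeq2 0.0508). CSF1R averaged 292 ± 45.2 normalised reads in the SLC2A3 libraries and 391 ± 28.7 in the vector libraries (SD, n = 3 each; limma adjusted p = 0.0587, edgeR 0.0303, DESeq2 0.0380). The part of these markers in the results below was not tested. CD3D, CD3E, MS4A1, HBB and HBA1 were at 0 in all 6 libraries. The 8 epithelial and fibroblast markers summed to between 81.7 and 102 normalised reads in the SLC2A3 libraries and between 48.1 and 62.0 in the vector libraries. The groups did not overlap in that sum, and its part in the results below was not tested. Over all 28015 genes tested with limma-trend, 1.49% were called at an adjusted p under 0.05, 0.692% higher and 0.8% lower in the SLC2A3 libraries.

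None of the 8 subunits was called, 0 of 8, with limma, against 1.49% of all genes tested. CCT4 had the largest difference, 1.11-fold higher in the SLC2A3 libraries, and CCT3 the next, 1.07-fold higher. Neither passed the threshold after adjustment over all genes, and both had an unadjusted p under 0.05, as did 11.8% of all genes tested, 5.63% in the higher direction. The log2 fold changes of the other 6 subunits lay between 0.01 and 0.05. With edgeR's quasi-likelihood test on the recovered reads 1 subunit, CCT4, was called higher and 0 lower. Of all genes tested there, 3.29% were called, 1.53% higher and 1.76% lower. With DESeq2 2 subunits, CCT4 and CCT3, were called higher and 0 lower. Of the 9332 genes to which DESeq2 gave an adjusted p after its own filtering, 8.62% were called, 3.7% higher and 4.92% lower, a share of other genes than the limma share.

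**Figure D1:**
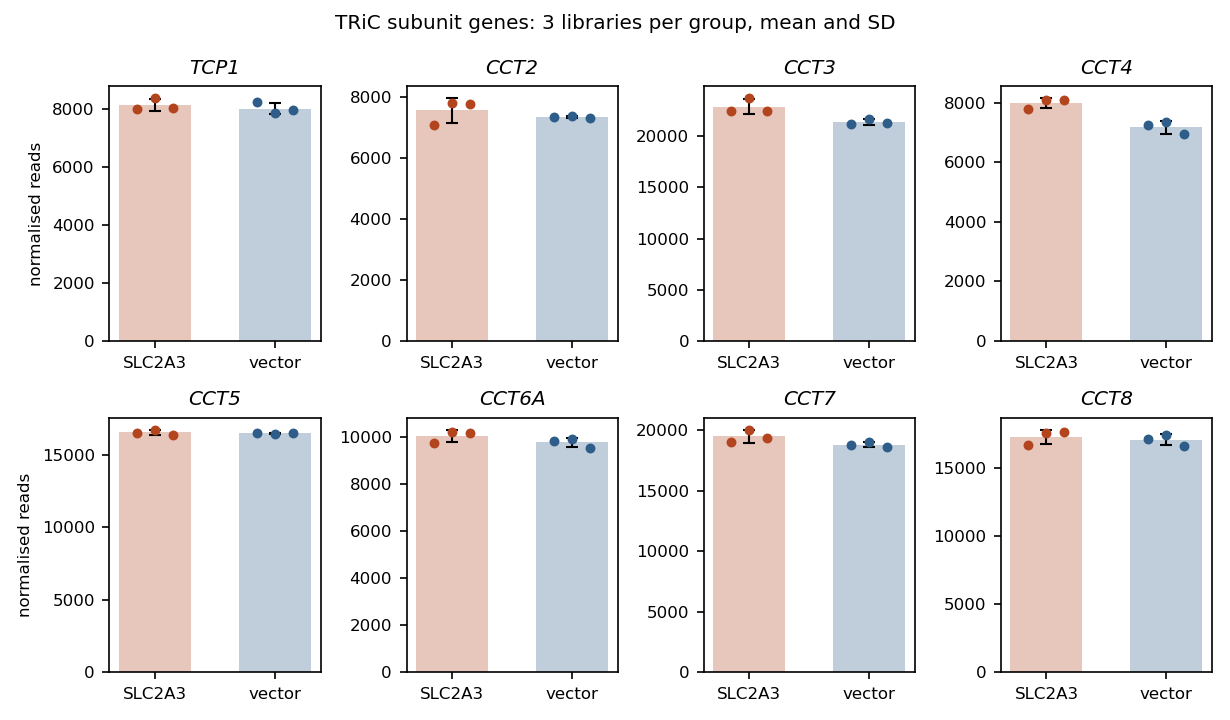
Normalised reads of each subunit gene in the 3 SLC2A3 libraries (left of each panel) and the 3 empty vector libraries (right), with points for libraries, bars for means and whiskers for SD. CCT3 and CCT4 have all SLC2A3 points above all vector points by a visible margin, CCT7 by a narrow one, and the other 5 subunits overlap.

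On the side of the ring with tighter ATP binding, CCT4 (ENSG00000115484.15, chromosome 2, 61868089 to 61888804, minus strand, GRCh38) had 7804, 8082 and 8093 normalised reads in the SLC2A3 libraries, against 7239, 7368 and 6938 in the vector libraries. Every SLC2A3 library lay above every vector library. The mean was 7993 ± 164 in the SLC2A3 libraries and 7182 ± 220 in the vector libraries (SD, n = 3 each), a log2 fold change of 0.15 (SE 0.042, limma adjusted p = 0.0660). Its 95% interval ran from 1.05-fold to 1.18-fold. CCT4, like CCT5, can assemble into rings of its own kind when the human protein is made alone in bacteria. The adjusted p was 0.0360 with edgeR and 0.00350 with DESeq2, which also test fewer genes, and 0.0240 with limma when a value of at least 50 was required.

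TCP1 (ENSG00000120438.12, chromosome 6, 159778498 to 159789749, minus strand), the subunit after which the complex was first named, had 7992, 8374 and 8036 normalised reads in the SLC2A3 libraries, against 8226, 7856 and 7963 in the vector libraries. The groups overlapped, and a mean of 8134 ± 209 in the SLC2A3 libraries and 8015 ± 190 in the vector libraries (SD, n = 3 each) gave a log2 fold change of 0.02 (SE 0.042, limma adjusted p = 0.906). CCT2 (ENSG00000166226.13, chromosome 12, 69585334 to 69601570, plus strand) had 7104, 7830 and 7781 normalised reads in the SLC2A3 libraries, against 7355, 7391 and 7312 in the vector libraries. The lowest and the highest CCT2 values both came from SLC2A3 libraries, with a log2 fold change of 0.04 (SE 0.044, limma adjusted p = 0.812). CCT5 (ENSG00000150753.12, chromosome 5, 10249921 to 10266412, plus strand), in which a mutation causes a hereditary sensory neuropathy, had 16496, 16730 and 16390 normalised reads in the SLC2A3 libraries, against 16471, 16452 and 16499 in the vector libraries. Its groups overlapped, at a mean of 16538 ± 174 in the SLC2A3 libraries and 16474 ± 24.0 in the vector libraries (SD, n = 3 each) and a log2 fold change of 0.0056 (SE 0.036, limma adjusted p = 0.979).

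On the other side of the ring, CCT3 (ENSG00000163468.15, chromosome 1, 156308968 to 156367873, minus strand) was the subunit with the most reads. It had 22481, 23728 and 22459 normalised reads in the SLC2A3 libraries, against 21198, 21689 and 21319 in the vector libraries. All 3 SLC2A3 libraries were above all 3 vector libraries. CCT3 averaged 22889 ± 726 in the SLC2A3 libraries and 21402 ± 256 in the vector libraries (SD, n = 3 each), at a log2 fold change of 0.10 (SE 0.036, limma adjusted p = 0.234). The interval ran from 1.02-fold to 1.13-fold, and DESeq2 gave an adjusted p of 0.0488, just inside the threshold, against 0.171 with edgeR.

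CCT7 (ENSG00000135624.16, chromosome 2, 73233420 to 73253021, plus strand) had 19079, 20061 and 19355 normalised reads in the SLC2A3 libraries, against 18831, 19021 and 18645 in the vector libraries. The groups did not overlap, but the nearest libraries differed by less than the SD of either group. CCT7 had a log2 fold change of 0.05 (SE 0.036, limma adjusted p = 0.673). CCT8 (ENSG00000156261.13, chromosome 21, 29055805 to 29073797, minus strand), which raised the amount of assembled TRiC when it alone was overexpressed in human embryonic stem cells and in C. elegans, had 16681, 17552 and 17654 normalised reads in the SLC2A3 libraries. In the vector libraries CCT8 had 17146, 17449 and 16647, so the groups overlapped at a log2 fold change of 0.02 (SE 0.038, limma adjusted p = 0.918). CCT6A (ENSG00000146731.11, chromosome 7, 56051630 to 56063989, plus strand) had 9721, 10212 and 10166 normalised reads in the SLC2A3 libraries, against 9843, 9911 and 9534 in the vector libraries. Its groups overlapped too, at a log2 fold change of 0.04 (SE 0.040, limma adjusted p = 0.795).

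All 8 fitted log2 fold changes were above 0, against 50.3% of all genes tested, and their median was 0.04, against 0.0014 over all genes. The signs of CCT5 and CCT8 turned when a single library was left out, to -0.0027 for CCT5 without SLC2A3 replicate 2 and to -0.00056 for CCT8 without vector replicate 3. The subunits share the same 6 libraries, so the 8 signs are not 8 independent observations. In 3 of 8, CCT3, CCT4 and CCT7, the SLC2A3 libraries were all higher, against 8.04% of all genes, and in 0 of 8 were they all lower, against 8.27%. Counting error alone was between 0.636% and 1.20% of each subunit's reads in a library. In the vector libraries the SD was smaller than that for CCT5, 24.0 on a mean of 16474, and for CCT2, 39.6 on a mean of 7353. Otherwise the SD of a subunit within a group was larger than its counting error. The highest upper limit of the 95% intervals was 1.18-fold, for CCT4, and the lowest lower limit was 0.954-fold, for CCT5.

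Summed over the 8 genes, the subunits had 107358, 112568 and 109934 normalised reads in the SLC2A3 libraries, against 106308, 107136 and 104858 in the vector libraries. The lowest SLC2A3 library exceeded the highest vector library only narrowly. The sum averaged 109953 ± 2605 in the SLC2A3 libraries and 106101 ± 1153 in the vector libraries (SD, n = 3 each), 3.63% higher with SLC2A3. The sum made up 0.323%, 0.339% and 0.331% of the normalised reads in the SLC2A3 libraries, against 0.320%, 0.323% and 0.317% in the vector libraries. Within groups the subunits tended to be high or low in the same library. SLC2A3 replicate 1 was the lowest of its group for 6 of the 8 subunits and SLC2A3 replicate 2 the highest for 6, while among vector libraries replicate 2 was the highest for 6 and replicate 3 the lowest for 5. After each group's mean was taken out, 27 of the 28 pairs of subunits had a positive Pearson correlation over the 6 libraries, with a median of 0.62. The pair CCT6A and CCT8 was highest at 0.98, and CCT4 and CCT5 were lowest at -0.018. These correlations describe 6 libraries that share their scaling factors, and the 28 pairs come from the same 8 genes. The share of positive pairs among other genes was not computed, so it is not known to be particular to the subunits.

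Because the ring needs equal copies of each subunit, the balance between the genes was also measured, as the log2 ratio of each subunit to the geometric mean of the other 7 in the same library. A scaling factor cancels in this ratio. CCT4 was the subunit whose groups separated. Its ratio was -0.744, -0.768 and -0.734 in the SLC2A3 libraries, against -0.859, -0.836 and -0.899 in the vector libraries, a difference of 0.12. The two-sided exact permutation test gave p = 0.1 for CCT4, the smallest that 3 libraries against 3 allow, and 0.32 adjusted over the 8 subunits. For the other 7 subunits the groups overlapped, with differences between -0.05 for CCT5 and 0.05 for CCT3.

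**Figure D2:**
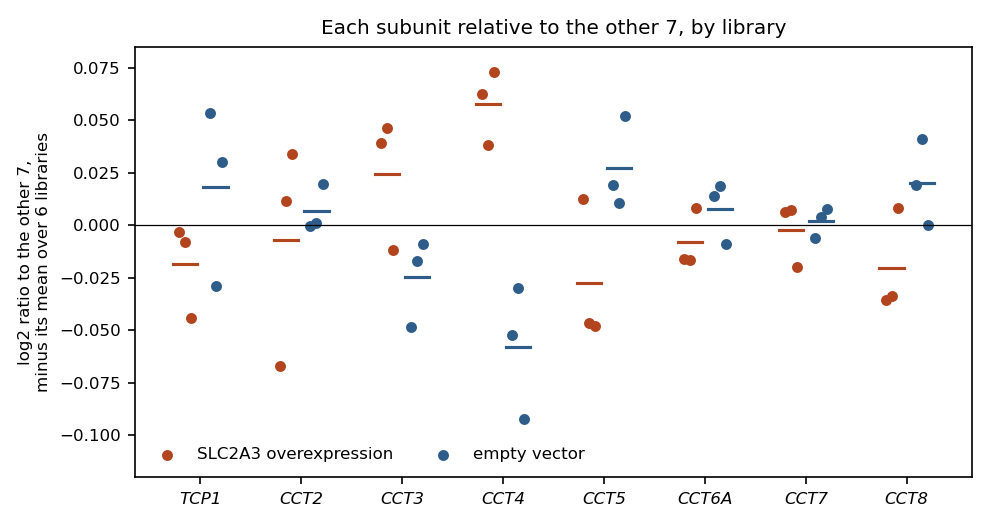
Log2 ratio of each subunit to the geometric mean of the other 7, minus the mean of that ratio over the 6 libraries, with 1 point per library and a line for each group mean (SLC2A3 left, empty vector right). The CCT4 points separate by group, with a difference of 0.12 between the means, and the points of the other 7 subunits overlap.

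Although the protein ring holds the subunits in equal numbers, the transcripts did not stand at equal levels. Per kilobase of all annotated exons, CCT3 had 5697 ± 181 normalised reads in the SLC2A3 libraries and 5327 ± 63.7 in the vector libraries (SD, n = 3 each). CCT7 had 5430 ± 141 in the SLC2A3 libraries and 5244 ± 52.4 in the vector libraries, and CCT8 had 5177 ± 160 in the SLC2A3 libraries and 5112 ± 121 in the vector libraries. TCP1, the lowest, had 1650 ± 42.3 per kilobase in the SLC2A3 libraries and 1626 ± 38.6 in the vector libraries. The level of CCT3 was therefore 3.45 times that of TCP1 in the SLC2A3 libraries and 3.28 times in the vector libraries. In descending order of the mean over all 6 libraries the genes were CCT3, CCT7, CCT8, CCT5, CCT4, CCT6A, CCT2 and TCP1. Over all 6 libraries pooled, 2 steps in that order were free of overlap, the step from CCT8 at 5145 to CCT5 at 2827 reads per kilobase and the step from CCT6A at 2537 to CCT2 at 1727. At each of the other 5 steps the pooled ranges overlapped. Compared within libraries, CCT3 over CCT7, CCT7 over CCT8, CCT4 over CCT6A and CCT2 over TCP1 held in 6 of 6 libraries, and CCT5 over CCT4 in 5 of 6.

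**Figure D3:**
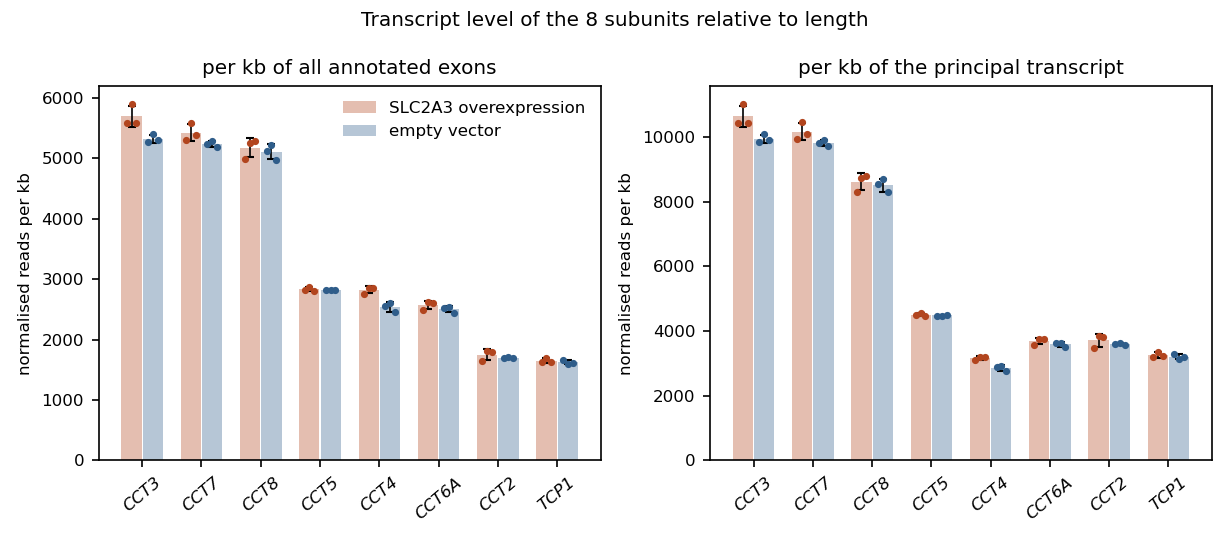
Normalised reads per kilobase of the 8 subunit genes in SLC2A3 (left bar of each pair) and empty vector libraries (right bar), with points for libraries, bars for means and whiskers for SD, using the length of all annotated exons (left panel) or of the principal transcript (right panel). CCT3, CCT7 and CCT8 stand highest in both panels, and CCT4 is the lowest of the 8 in the right panel.

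The upper end of the order was the same with other lengths and the lower end was not. With the annotated principal transcript, a length chosen after the data had been seen, CCT3 had 10300 reads per kilobase over the 6 libraries, CCT7 10003, CCT8 8573 and CCT5 4491. CCT4 was then the lowest at 3011, with TCP1 at 3231, and the highest level was 3.42 times the lowest. With the mean length of the coding transcripts the same 4 genes led and the ratio was 6.49, so the size of the imbalance depends on the length assumed. The position of CCT2, CCT4, CCT6A and TCP1 among themselves changed with the length used.

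The sequence just upstream of CCT4, the subunit with the largest difference, is shown first, followed by the heat shock element matches of the subunits, since heat shock genes differed between these groups. All come from the promoter table of RefSeq (GRCh38.p14), whose windows run from 250 bases before to 50 after an annotated start and which held 9 windows for 7 of the 8 subunits. The CCT4 stretch, chr2:61888805-61888921 on the minus strand, lies upstream of the start in both RefSeq and GENCODE 29 and holds none of the 6 motifs searched.
CCT4 upstream: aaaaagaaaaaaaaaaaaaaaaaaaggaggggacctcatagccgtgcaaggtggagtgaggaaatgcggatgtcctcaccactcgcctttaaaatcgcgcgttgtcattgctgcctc

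The heat shock factor HSF1 binds repeats of the unit GAA alternating with its reverse complement TTC. A 2-unit element was searched as GAANNTTC or TTCNNGAA and a 3-unit element, which contains 2-unit ones, as GAANNTTCNNGAA or TTCNNGAANNTTC, on both strands. A 2-unit element was found in 3 of the 9 subunit windows, those of CCT4, TCP1 and CCT2, against 13.5% of all 35116 windows. A 3-unit element was found in 0 of 9, against 0.490%. The CCT4 window ends right beside its match, before a further unit would be complete, so a 3-unit element there could not be seen. The 8 heat shock list genes in the promoter table had 14 windows, of which 7 held a 2-unit element. These came from 6 of the 8 genes, among them HSPA1A, HSPA1B and DNAJB1, in which no 3-unit element was found. A 3-unit element was found in 3 of the 14 windows, from HSPA8, HSP90AA1 and HSP90AB1. In the 30-base stretches that follow, on the strand of each gene, capitals mark the match.
CCT4, chr2:61888607-61888636: cccgacgccggcgccgctTTCTGGAAggtt
TCP1, chr6:159789815-159789844: tcgtttgaggcGAAGGTTCaacctcttccc
CCT2, chr12:69585789-69585818: cccggagcgaaGAAATTTCtagtgtgggac
HSPA8, chr11:123062345-123062374: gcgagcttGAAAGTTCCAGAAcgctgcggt
HSP90AA1, chr14:102087111-102087140: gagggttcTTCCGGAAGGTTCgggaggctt
HSP90AB1, chr6:44247770-44247799: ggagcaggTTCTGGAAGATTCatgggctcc
The stretches of the 3 subunits show 2-unit matches, that of CCT4 cut by the end of its window, and the stretches of the 3 heat shock genes show 3-unit matches. The CCT4 match starts 39 bases after a RefSeq start, and those of TCP1 and CCT2 lie 231 and 89 bases before theirs. The HSP90AA1 match overlaps the ETS core CCGGAAG. These matches are letters in a window and show no binding, and the search took exact letters only, so other forms of the element would be missed. For HSP90AB1, 3-unit matches lay in the window of the start at 44247943 and not in those of the starts at 44246194 and 44247101. Any part of these elements in the differences between the groups was not tested.

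Among common promoter motifs, the GC box GGGCGG was found in 6 of the 9 subunit windows, from CCT2, CCT3, CCT7, CCT8 and TCP1, against 45.0% of all windows. The CCAAT box was found in 4 of 9, from CCT2, CCT3, CCT8 and TCP1, against 34.6%. The ETS core was found in 1 of 9, from CCT2, against 10.3%, and the E-box CACGTG, bound by MYC, in 0 of 9, against 7.26%. RefSeq and GENCODE 29 place the starts of these genes 125 to 29581 bases apart, so the windows may miss starts used in these cells.

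Of the subunit genes, 5 begin head to head with a protein-coding neighbour on the opposite strand, with starts between 24 and 182 bases apart. None of these neighbours was called, nor were the 2 protein-coding genes that overlap a subunit gene's span. That made 0 of 7 in all, against 1.49% of all genes tested. COMMD1, which begins 80 bases inside the CCT4 span through a noncoding transcript, had 509, 502 and 522 normalised reads in the SLC2A3 libraries, against 471, 513 and 464 in the vector libraries. Those groups overlapped, where CCT4's did not, at a log2 fold change of 0.08 (limma adjusted p = 0.802). The other head-to-head neighbours were the mitochondrial ribosomal protein gene MRPL18 beside TCP1, ATPSCKMT beside CCT5, the serine synthesis gene PSPH beside CCT6A and PRADC1 beside CCT7. Their log2 fold changes were 0.03 for MRPL18, 0.04 for ATPSCKMT, -0.12 for PSPH and -0.06 for PRADC1.

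Shared reads are a limit for some of these genes, since the sources used here do not say whether reads were counted by strand. ACAT2, on the strand opposite to TCP1, overlaps its exons by 397 bases and had a log2 fold change of -0.11 (limma adjusted p = 0.669). At CCT4, COMMD1 overlaps 81 exon bases on the opposite strand, and an antisense RNA without a name (ENSG00000236498) overlaps 275, at 21.4, 19.2 and 23.5 normalised reads in the SLC2A3 libraries, against 27.5, 22.0 and 8.01 in the vector libraries. At CCT5, an antisense RNA (ENSG00000271980) overlaps 1757 exon bases and had at most 3.84 normalised reads. How many reads these genes share with CCT4 or CCT5 was not tested. TSACC, inside the CCT3 span with no exon base in common, had 68.7, 60.4 and 50.2 normalised reads in the SLC2A3 libraries, against 35.7, 31.0 and 47.1 in the vector libraries. Its groups did not overlap, at a log2 fold change of 0.65 that did not pass (limma adjusted p = 0.329). Of 14 annotated pseudogenes of the subunits, 11 averaged under 10 normalised reads. CCT6P3 had 379, 438 and 436 in the SLC2A3 libraries and 480, 404 and 353 in the vector libraries, and CCT6P1 had 132, 143 and 119 in the SLC2A3 libraries and 154, 118 and 135 in the vector libraries. CCT8P1 had 27.9, 68.1 and 40.6 in the SLC2A3 libraries, against 79.5, 66.0 and 79.1 in the vector libraries (log2 fold change -0.79, limma adjusted p = 0.204). Even CCT6P3, the highest of them, had few reads beside CCT6A, whose lowest library held 9534.

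The genes that feed clients to TRiC or tune it were counted next. Of the 6 prefoldin subunits, 0 passed in either direction, against 1.49% of all genes tested, with a median log2 fold change of 0.08. PFDN2 had 5615, 4974 and 5352 normalised reads in the SLC2A3 libraries, against 4675, 4926 and 4666 in the vector libraries. These groups just failed to overlap, at a log2 fold change of 0.16 (SE 0.049, limma adjusted p = 0.119), and PFDN2 passed with DESeq2 at an adjusted p of 0.0259. PFDN6 had a log2 fold change of 0.12 (limma adjusted p = 0.367). PFDN1 lay the other way, at -0.15 (limma adjusted p = 0.327), a gene named after its value was seen. Of 4 tested phosducin-like genes and PDCD5, which bind TRiC and modulate its cycle, 0 passed, with a median of 0.10. PDCD5 had a log2 fold change of 0.12 and PDCL, a partner in the folding of G-protein beta subunits, 0.09.

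Of the 7 tested genes of the prefoldin-like and R2TP complexes, 1 rose, against 0.692% of all genes tested, and 6 did not pass. Their median was 0.03. The gene that rose was RUVBL1, an AAA+ ATPase, with 5363, 5514 and 5623 normalised reads in the SLC2A3 libraries, against 4863, 4989 and 4740 in the vector libraries. Every SLC2A3 library was higher, at a log2 fold change of 0.18 (SE 0.045, limma adjusted p = 0.0403). The call was lost without any 1 of SLC2A3 replicates 2 and 3 and vector replicates 1 and 3, with limma adjusted p up to 0.223. Its partner ATPase RUVBL2 averaged 10378 ± 283 in the SLC2A3 libraries and 9486 ± 230 in the vector libraries (SD, n = 3 each), a log2 fold change of 0.13 that did not pass (limma adjusted p = 0.124). PIH1D1, another R2TP component, had a log2 fold change of 0.0029.

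Relatives of the TRiC subunits gave 0 calls among 6 tested, against 1.49% of all genes tested, with a median of 0.06. CCT6B, the testis form of CCT6A, was listed at 104, 104 and 119 normalised reads in the SLC2A3 libraries and 111, 116 and 105 in the vector libraries, far below CCT6A. The mitochondrial chaperonin HSPD1 had 22435, 23647 and 23718 in the SLC2A3 libraries, against 21666, 21771 and 21261 in the vector libraries. Its groups did not overlap, at a log2 fold change of 0.11 (SE 0.036, limma adjusted p = 0.154), a size close to that of CCT3, and DESeq2 called it at an adjusted p of 0.0209. The lid of that chaperonin, HSPE1, had a log2 fold change of 0.15 (limma adjusted p = 0.250).

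Client transcripts were counted in 3 lists. Over all genes tested, 0.692% were called higher and 0.8% lower. Of 6 tested actins and actin-related genes, 0 rose, 1 fell and 5 did not pass, with a median log2 fold change of -0.13. ACTB, cytoplasmic beta-actin, fell to 152225, 156176 and 159756 normalised reads in the SLC2A3 libraries, against 177777, 172824 and 174166 in the vector libraries. All SLC2A3 libraries were below all vector libraries, at a log2 fold change of -0.16 (SE 0.030, limma adjusted p = 0.0020). ACTG1, cytoplasmic gamma-actin, had 73657, 78822 and 76597 in the SLC2A3 libraries, against 86024, 81633 and 81498 in the vector libraries (log2 fold change -0.12, limma adjusted p = 0.0674). ACTG1 passed in 7 of the alternatives, edgeR at an adjusted p of 0.0317 among them. Near-identical copies such as these can share reads.

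Of 17 tubulins, 1 rose, against 0.692% of all genes tested, and 16 did not pass, with a median of 0.03. TUBA4A, an alpha-tubulin, rose to 644, 659 and 649 normalised reads in the SLC2A3 libraries, against 467, 424 and 410 in the vector libraries. The groups were far apart, at a log2 fold change of 0.59 (SE 0.087, limma adjusted p = 0.000229). The tubulins with the most reads did not pass, at log2 fold changes of -0.02 for TUBB and -0.07 for TUBB4B. Of 7 tubulin folding cofactors, which take tubulin on from TRiC, 1 rose, against the same 0.692%, with a median of 0.09. That was TBCA, which binds beta-tubulin, at 6319, 5664 and 6163 normalised reads in the SLC2A3 libraries, against 5210, 5218 and 5092 in the vector libraries (log2 fold change 0.22, SE 0.047, limma adjusted p = 0.0088). The call was lost without SLC2A3 replicate 1, SLC2A3 replicate 3 or vector replicate 3, with limma adjusted p up to 0.104. TBCB, which binds alpha-tubulin, had a log2 fold change of 0.09 (limma adjusted p = 0.603).

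Of 15 genes for WD40 and other clients, 0 rose, 1 fell, against 0.8% of all genes tested, and 14 did not pass. Their median was -0.06. PLK1, a mitotic kinase, fell to 3486, 3368 and 3315 normalised reads in the SLC2A3 libraries, against 4374, 3844 and 3950 in the vector libraries. The groups did not overlap, at a log2 fold change of -0.26 (SE 0.053, limma adjusted p = 0.0068). PLK1 was not called without SLC2A3 replicate 3 (limma adjusted p = 0.0882) or without vector replicate 1 (limma adjusted p = 0.0868). The G-protein beta subunit genes GNB1 and GNB2, the 2 clients with the most reads, had log2 fold changes of -0.07 and -0.04.

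**Figure D4:**
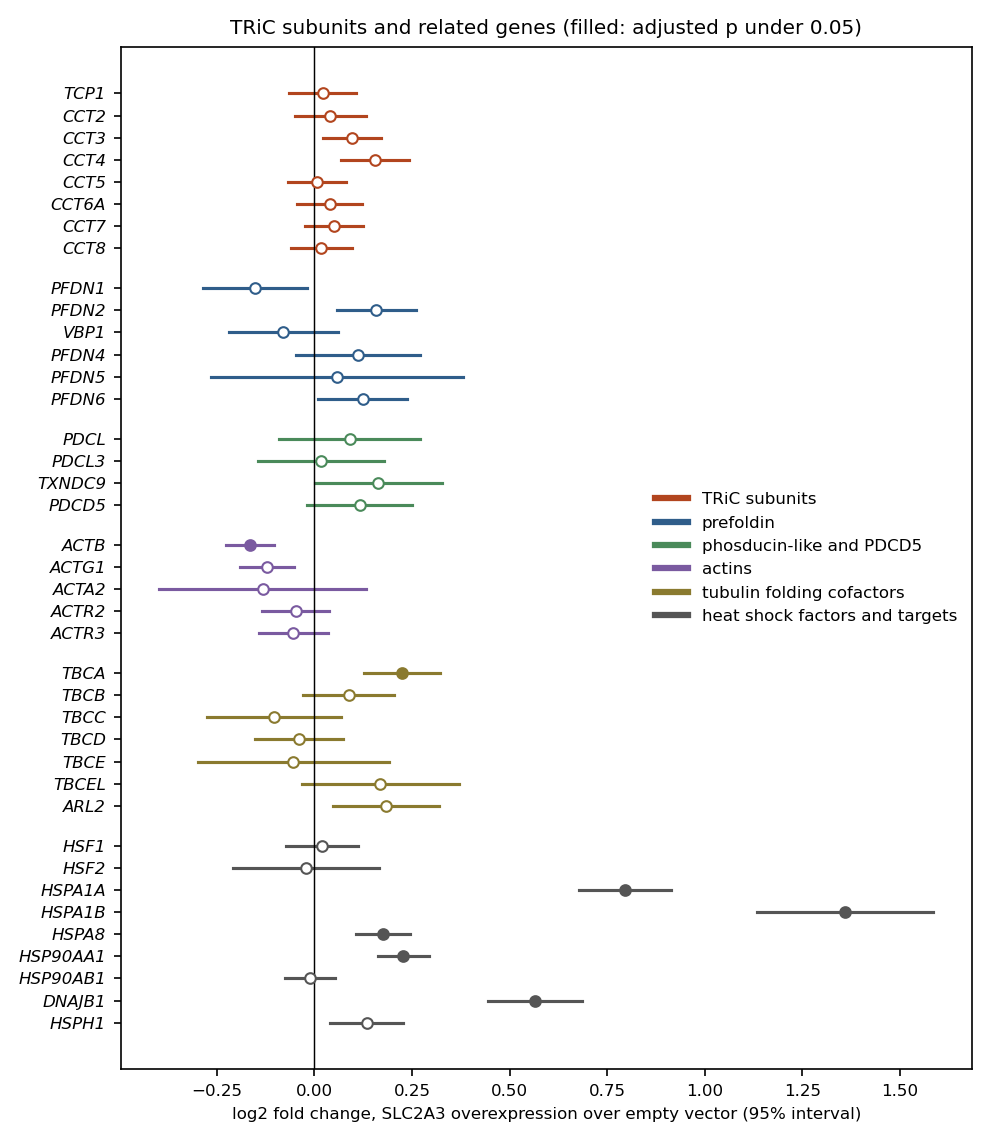
Log2 fold change, SLC2A3 over empty vector, with its 95% interval, for the TRiC subunits and for tested genes of 5 related lists with a mean of at least 100 normalised reads. Filled points had a limma adjusted p under 0.05. The 8 TRiC subunits are all open, between 0.01 and 0.15, while 5 heat shock genes, TBCA and ACTB are filled.

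The subunits were last set beside the heat shock response, because HSF1 and HSF2 are known to activate subunit genes in mouse cells. Of 9 heat shock factors and targets, 5 rose, 0 fell and 4 did not pass, with a median log2 fold change of 0.18. Over all genes tested, 0.692% were called higher and 0.8% lower. HSPA1A, an inducible HSP70, stood at 2552, 2435 and 2450 normalised reads in the SLC2A3 libraries, against 1378, 1442 and 1463 in the vector libraries, a log2 fold change of 0.80 (SE 0.057, limma adjusted p = 4.32e-10). The groups were wide apart, and HSPA1B, a near-identical copy that can share its reads, had a log2 fold change of 1.36. DNAJB1, an HSP70 co-chaperone, had a log2 fold change of 0.56. The other 2 that rose had differences nearer to that of CCT4. HSPA8, the constitutive HSP70, had a log2 fold change of 0.18 (SE 0.034, limma adjusted p = 0.0042), lost without SLC2A3 replicate 3 at an adjusted p of 0.0699, and HSP90AA1 had 0.23 (SE 0.032, limma adjusted p = 0.000108). HSP90AB1, the constitutive HSP90, had 65496, 68233 and 65675 normalised reads in the SLC2A3 libraries, against 67521, 66416 and 67054 in the vector libraries. These overlapped at a log2 fold change of -0.01 (limma adjusted p = 0.936), and the transcript of HSF1 itself had a log2 fold change of 0.02 (limma adjusted p = 0.929).

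Among 7857 protein-coding genes with a mean of at least 500 normalised reads, the 5 whose log2 values followed the mean of the subunits most closely over the 6 libraries were DDX31, TMEM106B, NLN, FRAT2 and NOC4L. Their Pearson correlations were 0.99 for DDX31, 0.99 for TMEM106B, 0.98 for NLN, 0.98 for FRAT2 and 0.98 for NOC4L. They are given as a description of 6 libraries that share their scaling factors. The 5 genes were picked for these correlations from 7857. The height of the correlations and the library order of DDX31 are therefore no evidence of a link to the subunits. DDX31, an RNA helicase, had 689, 767 and 743 normalised reads in the SLC2A3 libraries, against 687, 692 and 650 in the vector libraries, the order of libraries within each group being that of the subunit sum. None of the 5 was called, and their log2 fold changes ran from 0.07 for NLN to 0.18 for NOC4L.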

How the data were processed

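Strand-specific RNA-seq libraries were made from Trizol-extracted RNA, per the labels' protocols. BWA, TopHat2 and the build hg38 are listed in the submitters' processing notes, with no role or version. The counting program, annotation and strand setting are not given in the sources used here. In the deposited tables each value is a signal made from a gene's reads and a size factor of its library. Dividing by the worth of 1 read gave whole reads for 100% of the values within 0.001, with factors of 0.936 to 1.08 that match the median-of-ratios method.

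log2(value + 1) was fitted with limma-trend (limma 3.58.1, R 4.3.3) for the 28015 genes that reached a value of 1 in 3 or more libraries, with p-values adjusted by Benjamini-Hochberg over all of them and a threshold of 0.05. Fold changes on this scale understate low genes. edgeR 4.0.16 (3 scalings) and DESeq2 1.42.0 on recovered reads, other pseudocounts, filters, total-read scaling, leaving out each library and a replicate block were alternatives. The functions were tested on simulated data. Levels were divided by exon lengths of GENCODE 29 (GRCh38), which also gave coordinates, 1-based, and may not be the authors' annotation. Of the IDs, 60641 matched a name. On average over genes, each pair of replicates of a group differed by more than sampling noise (chi-square per gene 3.50 to 6.78).

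The members, lists and tests were chosen with earlier results of these data known. Named genes were the 8 subunits, called members and the 2 highest members of each list, pseudogenes averaging at least 10 reads, protein-coding neighbours, SLC2A3 and the 5 genes of most similar pattern. CCT6B, HSF1, PFDN1, the antisense RNAs and single cell type markers fall outside that rule and were named with their values known.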

Additional observations from a re-analysis of the deposited data

How the results depend on the processing

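The subunits called higher numbered 1 with edgeR under TMM, relative log expression or upper quartile scaling and with a minimum value of 50, and 2 with DESeq2. No subunit, 0, was called lower under any alternative, and leaving out any library gave 0 calls. CCT4 passed in these 5 alternatives, at log2 fold changes and adjusted p of 0.15 and 0.0360 (TMM), 0.16 and 0.0327 (relative log expression), 0.16 and 0.0311 (upper quartile), 0.15 and 0.00350 (DESeq2) and 0.15 and 0.0240 (minimum 50, where fewer genes are tested), and CCT3 with DESeq2 at 0.10 and 0.0488. Over the libraries left out, CCT4 ranged from 0.13 to 0.17 (limma adjusted p 0.0540 to 0.331), CCT3 from 0.07 to 0.11, CCT5 from -0.0027 to 0.012 and CCT8 from -0.00056 to 0.044. The cause of these changes was not tested. The highest level per kilobase was 6.49 times the lowest with mean coding transcript lengths, against 3.36 with all exons.

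Over all genes 194 were higher and 224 lower. Higher calls numbered 297 with relative log expression, 303 with upper quartile, 345 with DESeq2 and 322 with a minimum of 50. Lower calls numbered 459 with DESeq2, 144 with a pseudocount of 0.1 and 417 with a minimum of 50. Without each library they ranged from 100 to 222 higher and 88 to 244 lower, lowest without SLC2A3 replicate 3. The main fit did not treat samples as paired by their numbers. Same-numbered deviations correlated at -0.109, 0.011 and -0.0014, which cannot show whether same-numbered samples were handled together. A limma fit with the replicate block called RUVBL1 no longer, at an adjusted p of 0.0815, leaving 0 R2TP calls.

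List counts moved as follows. R2TP calls were 2 with DESeq2, 0 with a pseudocount of 0.1 and 0 to 1 over libraries left out. Higher calls were 1 in prefoldin with DESeq2 or a minimum of 50 (0 to 1 over libraries left out), 1 in the other chaperonins with DESeq2, 2 in tubulins with relative log expression, upper quartile, no filter or a minimum of 50, 0 to 1 in tubulin cofactors and 4 to 5 in heat shock genes over libraries left out. Lower calls were 2 in actins with TMM, relative log expression, DESeq2, no filter or a minimum of 50 (1 to 2 over libraries left out). Among clients 1 was higher with DESeq2 or a minimum of 50, and 2 were lower with DESeq2 (0 to 1 over libraries left out). ACTB, TUBA4A, HSPA1A, HSPA1B, HSP90AA1 and DNAJB1 kept their calls in all 16 alternatives. Over libraries left out the sign turned for PIH1D1 (-0.041 to 0.034), CCT6P1 (-0.14 to 0.049), CCT6P3 (-0.079 to 0.14), MRPL18 (-0.022 to 0.092) and ATPSCKMT (-0.062 to 0.11), none of them called.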
